A study of Mus musculus with 6 samples.

Results

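The erythroid genes described here are 9 genes with roles in red cell formation, Hba-a1, Klf1, Car1, Car2, Epor, Alas2, Hemgn, Ermap and Tfrc. They were followed in cultured bone marrow cells of mice that were wild type or knockout for the DNA methyltransferase gene Dnmt3a. The 9 genes were taken by symbol from a table of 15139 gene rows, and all 9 were found. The marrow came from MxCre+v: Dnmt3a+/+ mice (wild type, WT) and from MxCre+v: Dnmt3a-/- mice (knockout, KO), so both genotypes carried the Mx-Cre transgene, a recombinase driven by an interferon-responsive promoter that is active in blood cells. All cells were kept in RPMI with 10% fetal bovine serum, 10 ng/ml interleukin 3 (IL3) and 50 ng/ml stem cell factor (SCF), and RNA was sequenced at week 1 of culture. WT was measured in 3 libraries (replicates 1, 2 and 3) and the knockout in 2 (replicates 2 and 3), and the third knockout sample named in the labels was not analysed here. Not given in the sources used here are the age of the mice and any induction of the Cre, and the labels name the second group both as -/- and as a knockdown.

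Red cells arise from progenitors that receive erythropoietin through its receptor, Epor, and that switch on the transcription factors Gata1, Tal1 and Klf1. These factors drive the genes for globin chains, for haem synthesis from the erythroid enzyme Alas2, for iron uptake through the transferrin receptor Tfrc, and for the red cell membrane. IL3 and SCF, the cytokines of this culture, support myeloid and mast cells, which share Gata1, Gata2 and Tal1 with the red cell lineage but make no haemoglobin in quantity.

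Promoter sequences of Hba-a1, Klf1 and Alas2 are shown because the first pair was lower in the knockout and the third was almost silent in every library, while GATA factors were abundant in the culture. Each run is the 250 bases before the transcription start in RefSeq's GRCm38.p6 annotation, 5′ to 3′ on the gene's own strand. Capitals mark a GATA motif (GATA with an A or T before it and an A or G after it) or a CACCC-type motif of KLF factors (CCNCNCCC), each on either strand, and neighbouring matches may overlap.
Hba-a1, chr11:32283422-32283671, plus strand: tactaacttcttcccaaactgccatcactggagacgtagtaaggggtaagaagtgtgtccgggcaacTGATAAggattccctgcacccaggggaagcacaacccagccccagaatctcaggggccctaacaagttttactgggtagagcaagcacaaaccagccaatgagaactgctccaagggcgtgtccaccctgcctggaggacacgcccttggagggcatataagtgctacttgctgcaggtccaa
Klf1, chr8:84901732-84901981, plus strand: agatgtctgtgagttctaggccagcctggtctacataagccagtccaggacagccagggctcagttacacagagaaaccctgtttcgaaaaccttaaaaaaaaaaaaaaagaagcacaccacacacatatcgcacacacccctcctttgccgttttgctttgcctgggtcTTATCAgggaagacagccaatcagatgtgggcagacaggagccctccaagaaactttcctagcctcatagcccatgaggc
Alas2, chrX:150547167-150547416, plus strand: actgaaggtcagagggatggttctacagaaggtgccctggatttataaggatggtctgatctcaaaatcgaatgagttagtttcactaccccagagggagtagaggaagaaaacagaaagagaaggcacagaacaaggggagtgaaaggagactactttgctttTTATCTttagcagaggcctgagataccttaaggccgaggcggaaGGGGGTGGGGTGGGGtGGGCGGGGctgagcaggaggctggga

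The table of promoters held 7 of the 9 genes, with Car1 and Car2 missing. A GATA motif was present in 6 of the 7, and in 26.5% of 32851 background promoters of the same length. The background did not cover every chromosome and was counted per promoter, while the 7 were counted per gene. The Hba-a1 motif lay 183 to 178 bases before the start, that of Klf1 80 to 75 bases and that of Alas2 86 to 81 bases before it. The looser CACCC-type motif was present in 4 of the 7 and in 45.9% of the background promoters, and its Hemgn matches were a run of G. Hba-a1 and Klf1, which were lower in the knockout, and Alas2, which was near 0 in both genotypes, all held a GATA motif. So did Epor, Hemgn and Ermap, whose WT and knockout levels overlapped. A match is a description of letters in this window and not evidence of binding.

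Levels are FPKM (sequenced fragments corrected for gene length and for library size), so the levels of different genes can be set side by side but the sequencing depth is unknown. Dnmt3a, which checks the labels, stood at 6.68, 9.99 and 9.04 FPKM across WT replicates 1, 2 and 3 and at 2.58 and 3.42 FPKM across KO replicates 2 and 3. Its knockout mean was 0.35 of the WT mean, so transcript of the gene was still counted in the knockout. WT replicate 1 and both knockout libraries came from male mice and WT replicates 2 and 3 from female mice, by Xist and the Y-linked Ddx3y. The pan-blood genes Ptprc, Coro1a and Laptm5 summed to between 1270 and 1384 FPKM in every library. The comparison used limma on log2(FPKM + 1), knockout minus WT, with Benjamini-Hochberg adjustment over 11365 genes that reached 1 FPKM in at least 2 libraries. Of these, 22.1% passed an adjusted p of 0.05, 9.08% as higher and 13% as lower in the knockout. These shares are the background for the counts of each list below. In bulk RNA, fewer cells of a type and less RNA per cell cannot be told apart.

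Over the 9 genes the levels spanned from almost 0 to 55.3 FPKM. The highest was Tfrc with a mean of 55.3 FPKM over the 5 libraries, followed by Hba-a1 with 42.5 FPKM and Car2 with 9.34 FPKM, against a median of 6.26 FPKM over all rows. Klf1 (1.95 FPKM), Hemgn (1.61), Car1 (1.32) and Epor (1.27) formed a low group, with Ermap (0.304) and Alas2 (0.044) below them. In WT, Tfrc (61.6 ± 12.2 FPKM, SD, n = 3) and Hba-a1 (51.7 ± 7.50) did not differ beyond their spread, nor did Hemgn (1.73 ± 0.330) and Car1 (1.74 ± 0.527). In the knockout, Hemgn (1.44 ± 0.615 FPKM, SD, n = 2), Epor (1.37 ± 0.233) and Klf1 (1.17 ± 0.0283) lay within their spread of each other.

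**Figure D1:**
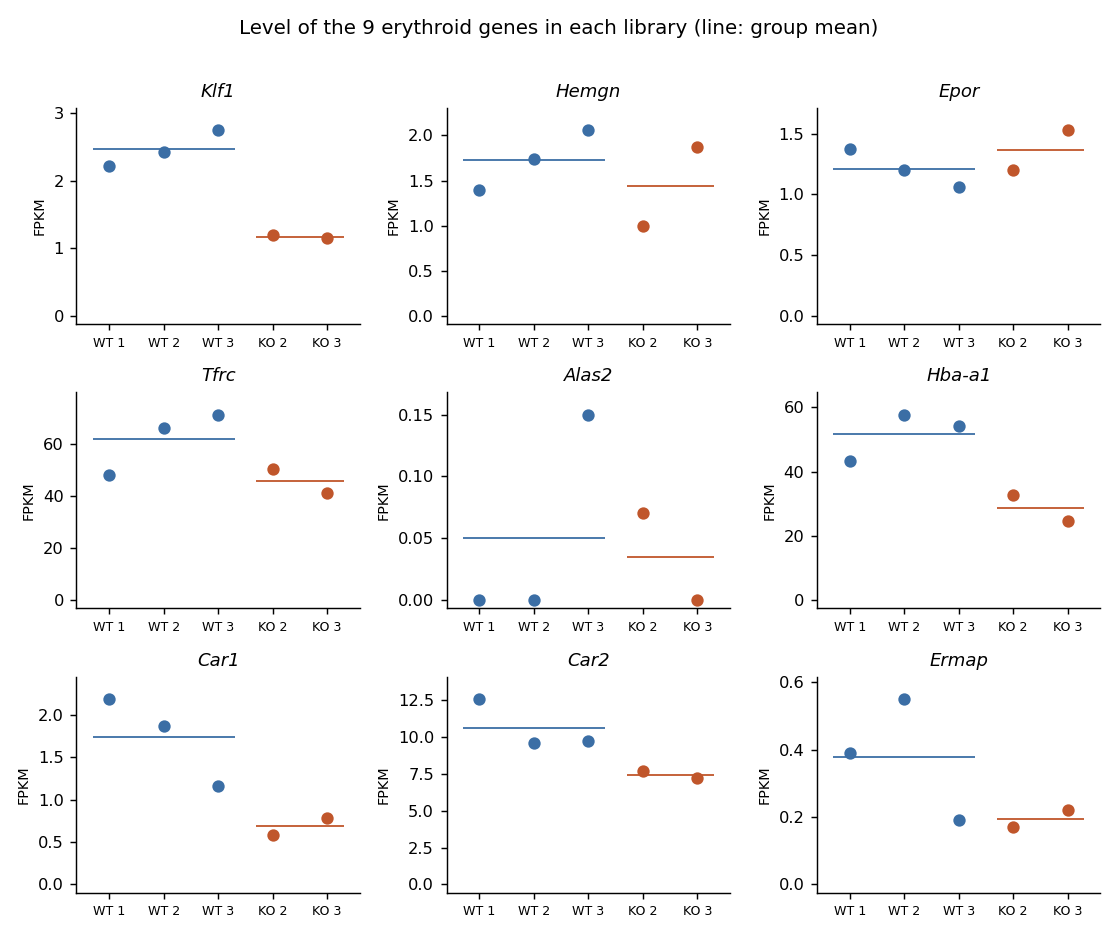
Level of each of the 9 erythroid genes in FPKM (vertical axes, each from 0) in the 3 WT (blue) and 2 knockout (orange) libraries, with a line at each group's mean. The knockout points lie below every WT point for Klf1, Hba-a1, Car1 and Car2, and overlap with WT for the other 5 genes.

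In the knockout, 4 of the 9 genes were lower, none was higher, and the groups of the other 5 overlapped. The 4 that fell were Hba-a1, Klf1, Car1 and Car2. They were the 4 of 7 tested genes that passed the test, against 13% of all tested genes called lower. Alas2 and Ermap stayed under 1 FPKM in every library and were not tested, and Car1 reached 1 FPKM in WT alone, so it could enter the test only by being high there. The same 4 genes were those whose knockout libraries both lay below all WT libraries, an arrangement found in 30.8% of all tested genes, or in 51.1% when both directions are counted. The median log2 change of the 7 tested genes was -0.46, beside -0.04 over all tested genes. Only Car2 passed (adjusted p = 0.0178) with sex as a covariate, a fit that sets the knockout against the male WT library, and only Klf1 passed (0.0498) without KO replicate 3, where the 1 knockout library left is assumed to vary as the WT libraries do. In the authors' deposited table, Hba-a1 (adjusted p = 0.00517) and Car2 (0.0433) were below 0.05, Klf1 (0.346) and Car1 (0.769) were not, and 6.09% of its 15139 rows were.

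Klf1 (gene 16596, chromosome 8 from 84901982 to 84905291), the erythroid Krüppel-like factor that activates globin, haem and membrane genes, was low in WT and lower in the knockout. Its level was 2.22, 2.43 and 2.75 FPKM across WT replicates 1, 2 and 3 and 1.19 and 1.15 FPKM across KO replicates 2 and 3. The highest knockout library was well under the lowest WT library, and the knockout mean was 0.474 of the WT mean. On the log2(FPKM + 1) scale, which understates changes of low genes, the change was -0.67 ± 0.13 (SE; limma adjusted p = 0.0102). With a pseudocount of 0.1 in place of 1 it was -1.01. Against the male WT library the change was -0.57 and did not pass (adjusted p = 0.0966).

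Hemgn (gene 93966, chromosome 4 from 46393989 to 46404183) encodes hemogen, a nuclear protein of erythroid and other blood precursors. Its level was 1.4, 1.74 and 2.06 FPKM in the WT libraries and 1.00 and 1.87 FPKM in the knockout libraries. The knockout pair was wider apart than the whole WT group, and the groups overlapped. Its log2 change was -0.18 ± 0.19 (SE; limma adjusted p = 0.553), and without KO replicate 2 it was 0.08.

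The erythroid transcription factors, a list that holds Klf1 and Hemgn, did not move as 1 block. Of 22 tested factors, 5 rose and 4 fell, with a median log2 change of 0.00. The risers were Gata2, Gata1, Tal1, Myb and Cbfa2t3. Gata2, a factor of progenitors and mast cells, rose from a mean of 286 ± 15 FPKM (SD, n = 3) to 458 ± 9.95 FPKM (n = 2), or by 0.68 ± 0.08 on the log2 scale. Gata1, the leading factor of red cells and also of mast cells and megakaryocytes, rose from 41.8 ± 2.09 to 69.0 ± 6.18 FPKM, and Tal1, its partner, from 35.4 ± 2.67 to 66.8 ± 9.36 FPKM. Myb, of proliferating progenitors, rose by 0.31 on the log2 scale. Lmo2, which bridges TAL1 and GATA factors in 1 complex, fell from 35.9 ± 1.96 to 17.8 ± 0.856 FPKM. E2f2, a cell cycle factor of late erythroblasts, fell by 0.53 on the log2 scale and Bach1, a haem-sensing repressor, by 0.45, and Klf1 was the other factor that fell. Nfe2 was the most abundant factor that did not pass (102 FPKM in WT against 96.3 FPKM in the knockout, adjusted p = 0.471). The limma adjusted p values of the factors named as changed lay between 0.000438 and 0.0256, apart from Cbfa2t3 (0.0438). Myb lost its call in 6 of the alternative settings and Bach1 in 7, and with sex as a covariate 3 factors rose and 1 fell.

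Markers of several other cell types differed between the same libraries. The 11 mast cell markers, a list that holds Gata2, summed to between 11867 and 13615 FPKM in WT and to 32011 and 27802 FPKM in the knockout, with 8 higher and none lower. Most of each sum was Cpa3, at 7231, 6554 and 7576 FPKM in WT and at 19655 and 17551 FPKM in the knockout. The 9 megakaryocyte markers, of which 7 were tested and 2 rose and 2 fell, summed to 315 to 371 FPKM in WT and to 321 and 414 FPKM in the knockout, which overlap. All 9 tested neutrophil markers fell. Of 7 basophil markers, 3 rose and 1 fell (sums of 5714 to 7230 FPKM for WT, 7738 and 7528 for the knockout). Fcer1a, 1 of these 3 risers, is also on the mast cell list and rose from a mean of 1099 to 2604 FPKM. The basophil protease genes Mcpt8 (3219 and 2763 FPKM) and Prss34 (1869 and 1764 FPKM) did not pass (limma adjusted p = 0.306 and 0.862). Of 8 eosinophil markers 1 rose, with overlapping sums (5981 to 9031, then 8000.3 and 10785 FPKM). The part of these cells in the rise of Gata1, Gata2 and Tal1 was not tested.

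Epor (gene 13857, chromosome 9 from 21958897 to 21963576), the erythropoietin receptor, was at a low level in both genotypes. Its level was 1.37, 1.2 and 1.06 FPKM in the WT libraries and 1.2 and 1.53 FPKM in the knockout libraries. The groups overlapped, and the log2 change was 0.10 ± 0.15 (SE; limma adjusted p = 0.685), with its sign reversed to -0.01 against the male WT library.

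The erythropoietin receptor signals through JAK2 and STAT5, which IL3 and other cytokines also use. Genes of this signalling, a list that holds Epor itself, changed in both directions. Of 17 tested, 4 rose and 4 fell, with a median log2 change of 0.09. Without KO replicate 2 it was 8 and 4 with a median of 0.21, without KO replicate 3 it was 3 and 3 with a median of -0.02, and with sex as a covariate 2 rose and 3 fell. The STAT5 targets and feedback inhibitors Cish and Socs2 rose from 128 ± 9.60 to 236 ± 24.1 FPKM and from 17.8 ± 1.06 to 33.3 ± 0.283 FPKM (limma adjusted p = 0.00110 and 0.000583). The adaptor gene Irs2 rose by 1.11 ± 0.23 on the log2 scale, with KO replicate 3 at 28.5 FPKM and KO replicate 2 at 15 FPKM, and the kinase gene Pim1 rose by 0.45 ± 0.13, a call lost in 9 of 19 alternative settings. Among those that fell were the adaptor Gab1 (-0.80), which reached 1 FPKM in WT alone, the ubiquitin ligase gene Cbl (-0.66), the phosphatase gene Ptpn6 (-0.48) and Bnip3l (-0.41), which is needed for removal of mitochondria from reticulocytes. Grb2, the most abundant gene of the list that did not pass, stood at 111 and 108 FPKM. The limma adjusted p values of the 6 genes named after Socs2 as changed lay between 0.00236 and 0.0477.

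Tfrc (gene 22042, chromosome 16 from 32608896 to 32632794), which takes up transferrin-bound iron in erythroblasts and in any dividing cell, was the most abundant of the 9. Its level was 47.9, 66.0 and 71.1 FPKM across WT replicates 1, 2 and 3 and 50.2 and 41.2 FPKM in the knockout. WT replicate 1 lay between the knockout libraries and apart from the other WT libraries, so the groups overlapped. The log2 change was -0.41 ± 0.17 (SE; limma adjusted p = 0.138). Without WT replicate 1 it was -0.58 and passed (adjusted p = 0.0170), and against WT replicate 1 as the male library it was -0.07 (0.801). The 10 proliferation markers, Mki67 and Top2a among them, summed to 729 to 770 FPKM in WT and to 677 and 634 FPKM in the knockout, with 2 lower and none higher, and their part in the level of Tfrc was not tested.

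The 19 tested genes of iron uptake and storage had a median log2 change of -0.25. Of the 19, 5 fell and none rose, beside 13% of all tested genes called lower and 9.08% called higher. The count was 2 without WT replicate 2 or WT replicate 3 and with sex as a covariate, 3 with the replicate block, without the filter on low values and under median-of-ratios or upper-quartile scaling, and 8 (7 lower, 1 higher) without KO replicate 2. Hfe, a membrane protein that binds the transferrin receptor, fell from a WT mean of 17.7 ± 2.51 FPKM (SD, n = 3) to 4.15 ± 0.347 FPKM (n = 2), or by 1.86 ± 0.12 on the log2 scale. The ferritin genes Fth1 and Ftl1 fell from 2290 ± 79.0 to 1549 ± 63.1 FPKM and from 6263 ± 242 to 4726 ± 174 FPKM. The endosomal ferrireductase gene Steap3 fell by 0.54 on the log2 scale. Aco1, the cytosolic aconitase that doubles as an iron-regulatory protein, was the other member that fell. Pcbp1, an iron chaperone, stood at 206 and 188 FPKM and did not pass (adjusted p = 0.246). The limma adjusted p values of the 5 lay between 0.000269 and 0.0464, and Ftl1 (0.0447) and Steap3 (0.0199) lost their calls in 9 and 4 of the alternative settings and Fth1 in 2, with the replicate block (0.0555) and with sex as a covariate (0.0577).

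Alas2 (gene 11656, chromosome X from 150547417 to 150570622), the erythroid 5-aminolevulinate (ALA) synthase that starts haem synthesis in red cells, was nearly silent. It was listed at 0, 0 and 0.15 FPKM across WT replicates 1, 2 and 3 and at 0.07 and 0 FPKM across KO replicates 2 and 3. Its housekeeping relative Alas1 stood at 109, 124 and 122 FPKM in the WT libraries and at 70.6 and 69.0 FPKM in the knockout. Alas1 therefore made up nearly all ALA synthase transcript in every library, and it fell in the knockout by 0.75 ± 0.08 on the log2 scale (limma adjusted p = 0.00103), a call that held in every alternative setting.

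Over the whole pathway, 13 genes of haem synthesis and its transport were tested, of which 3 fell and 1 rose, with a median log2 change of -0.04. The 4 calls became 1 or 2, all lower, with any 1 library left out, with the replicate block, with sex as a covariate and without the filter on low values. Besides Alas1, Cpox fell by 0.35 on the log2 scale (limma adjusted p = 0.0303). The next enzyme after ALA synthase, Alad, rose from 3.63 ± 0.108 to 4.97 ± 0.368 FPKM (adjusted p = 0.0415). Urod stood at 29.5 and 27.4 FPKM and did not pass (0.392). Of these, Alad lost its call in 8 and Cpox in 11 of the alternative settings. Of 6 tested genes of haem breakdown and export, 3 fell and none rose: the haem oxygenase gene Hmox1 from 106 ± 20.0 to 46.5 ± 4.49 FPKM, and the biliverdin reductase genes Blvrb from 66.3 ± 6.18 to 33.1 ± 6.87 FPKM and Blvra from 44.9 ± 1.77 to 31.4 ± 1.90 FPKM (adjusted p = 0.00269, 0.00260 and 0.00413). The haem transporter gene Slc48a1 stood at 83.8 and 85.2 FPKM. Macrophages, which recycle haem and iron, also express these genes. The 9 monocyte and macrophage markers summed to between 5169 and 7103 FPKM in WT and to 1918 and 1631 FPKM in the knockout, with 7 lower and 1 higher. Most of each sum was Lyz2, at 6477, 5178 and 4523 FPKM in WT and at 1587 and 1311 FPKM in the knockout. Adgre1 was the marker that did not pass (102 and 98.7 FPKM, limma adjusted p = 0.801). The part of macrophage content in the falls of Hmox1, Blvrb, Hfe and the ferritins was not tested.

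**Figure D2:**
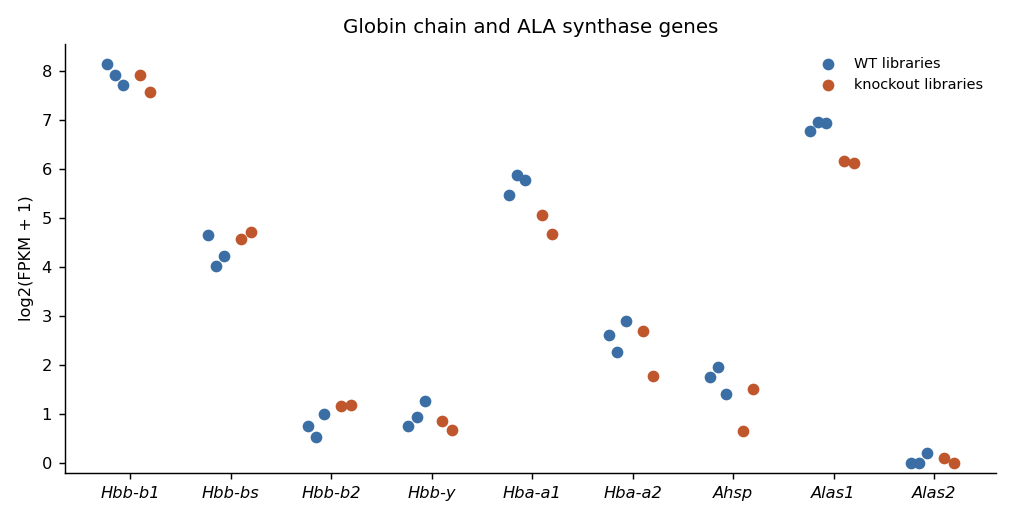
Level of globin chain genes, the globin chaperone gene Ahsp and both ALA synthase genes as log2(FPKM + 1) (vertical axis) in the WT (blue) and knockout (orange) libraries, 1 point per library. Alas1 lies high and Alas2 near 0 in all 5 libraries, and the Hba-a1 points of the knockout lie below those of WT while those of Hbb-b1 overlap.

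Hba-a1 (gene 15122, chromosome 11 from 32283672 to 32284486), 1 of the adult alpha globin genes, was lower in both knockout libraries. Its level was 43.3, 57.8 and 54.1 FPKM across WT replicates 1, 2 and 3 and 32.6 and 24.5 FPKM across KO replicates 2 and 3. The groups did not overlap, and the mean fell from 51.7 to 28.6 FPKM, which is -0.84 ± 0.15 on the log2 scale (SE; limma adjusted p = 0.00895). The change was -0.60 against the male WT library (adjusted p = 0.0733) and -0.64 without KO replicate 3 (0.0516), and neither passed.

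The level of Hba-a1 cannot be separated cleanly from that of its copy Hba-a2, since their coding sequences are the same at 428 of 429 bases. Hba-a2 was listed at 5.14, 3.81 and 6.50 FPKM in WT and at 5.46 and 2.44 FPKM in the knockout, and did not pass (log2 change -0.36, adjusted p = 0.417). Added together, both alpha genes stood at 48.5, 61.6 and 60.6 FPKM in WT and at 38.1 and 27.0 FPKM in the knockout, and the sum fell by 0.80 on the log2 scale (limma adjusted p = 0.0128). That sum was chosen after the data were seen.

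Summed FPKM was higher for the beta than for the alpha globin genes in every library, and the groups of the beta sum overlapped. Counting rules are not given and the copies of these genes are alike, so how far this reflects transcript amounts is unknown. Whether the change of beta transcripts differed from that of alpha transcripts was not tested. Hbb-b1, an adult beta globin gene, was at 282, 243 and 209 FPKM in WT and at 243 and 189 FPKM in the knockout, with overlapping groups (log2 change -0.18 ± 0.15; limma adjusted p = 0.45). Hbb-bs stood at 24.1, 15.4 and 17.7 FPKM and at 22.8 and 25.3 FPKM (0.34 ± 0.17, adjusted p = 0.203), and it passed as higher without WT replicate 1 (0.0215). Hbb-b2 was near 1 FPKM, at 0.707 ± 0.281 for WT against 1.26 ± 0.0424 for the knockout (adjusted p = 0.147). Hbb-b1, Hbb-b2 and Hbb-bs are closely related copies from different mouse haplotypes, so reads can be split among them, and their sum was 307, 258 and 227 FPKM in WT and 267 and 216 FPKM in the knockout. The ratio of summed beta to summed alpha FPKM was 6.34, 4.2 and 3.76 across WT replicates 1, 2 and 3 and 7.01 and 8.0 across KO replicates 2 and 3, with the male WT library nearest to the knockout.

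The remaining globin genes were at the lower end of the table. The embryonic beta-like gene Hbb-y was at 1.01 ± 0.365 FPKM in WT and 0.705 ± 0.149 FPKM without Dnmt3a, and Hbq1b at 0.0633 and 0.060 FPKM, and neither was tested. Ahsp, which stabilises free alpha chains, was at 2.38, 2.90 and 1.64 FPKM in WT and 0.57 and 1.84 FPKM in the knockout (log2 change -0.63 ± 0.28; limma adjusted p = 0.154). Of the 6 tested genes of globins and their chaperone, Hba-a1 alone passed, with a median log2 change of -0.27. The median was 0.05 without KO replicate 3. None of the 6 passed with sex as a covariate (limma adjusted p of Hba-a1 0.0733). With the replicate block or without WT replicate 1, Hbb-bs passed as well, as higher.

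The carbonic anhydrase genes Car1 (gene 12346, from 14766214 to 14808365) and Car2 (gene 12349, from 14886269 to 14900770), neighbours on chromosome 3, encode enzymes that hydrate carbon dioxide in red cells. Car2 is also made in other cells, macrophages among them. Car1 was at 2.19, 1.87 and 1.16 FPKM across WT replicates 1, 2 and 3 and at 0.59 and 0.78 FPKM across KO replicates 2 and 3. Car2 was at 12.6, 9.57 and 9.72 FPKM in WT and at 7.65 and 7.18 FPKM in the knockout. For both genes WT replicate 1 was the highest library and the groups did not overlap.

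Both changes were close to the threshold. Car1 changed by -0.68 ± 0.19 (SE; limma adjusted p = 0.0450) and Car2 by -0.46 ± 0.13 (0.0422) on the log2(FPKM + 1) scale, and the knockout means were 0.394 and 0.698 of the WT means. Car1 lost its call in 11 settings, without WT replicate 1 or 2 or either knockout library among them (adjusted p between 0.102 and 0.15). Car2 lost its call in 12, which include leaving out any 1 of the 5 libraries (between 0.0574 and 0.156).

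Other members of the carbonic anhydrase family did not share 1 direction. Of 9 tested genes, 4 rose and Car1 and Car2 fell, with a median log2 change of 0.07. Leaving out any 1 library gave 2 or 3 calls in place of 6, and under quantile, upper-quartile and median-of-ratios scaling and total scaling without the 100 highest genes 4 rose and none fell. Car8, a relative without catalytic activity, rose from 4.48 ± 0.155 to 9.21 ± 0.170 FPKM, and the membrane-bound Car12 from 2.14 ± 0.208 to 5.33 ± 0.212 FPKM (limma adjusted p = 0.000775 and 0.00115). The mitochondrial Car5b rose by 0.52 on the log2 scale and the membrane-bound Car9 by 0.51 (adjusted p = 0.0245 and 0.0330), and each lost its call in 7 settings. Car13, a cytosolic enzyme, was at 7.25 and 7.65 FPKM and did not pass (0.655).

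Ermap (gene 27028, chromosome 4 from 119175457 to 119190013), an adhesion protein of the erythroid membrane, was listed at 0.39, 0.55 and 0.19 FPKM in WT and at 0.17 and 0.22 FPKM in the knockout. WT replicate 3 lay between the knockout libraries, and the gene was too low to be tested. Of the 23 genes of the red cell membrane and skeleton in the table, 9 were not tested, against 24.9% of all rows, and 7 stayed under 1 FPKM in every library, while the whole list summed to between 583 and 614 FPKM. Of the 14 tested, Mpp1, a membrane scaffold gene also active in other blood cells, fell from 63.3 ± 4.64 to 38.1 ± 1.83 FPKM (limma adjusted p = 0.00155), none rose, and the median log2 change was -0.14. In 6 settings, 4 of them scalings, 1 gene rose beside it, and without KO replicate 3 a second gene fell. Bsg, a widely expressed membrane glycoprotein gene, was the most abundant that did not pass (206 and 226 FPKM, adjusted p = 0.270).

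As a check of the name given to these genes, 15 genes that define erythroblasts were set together, Hbb-b1, Rhag, Tfr2 and most of the 9 among them. They summed to 364, 332 and 294 FPKM in WT and to 306 and 251 FPKM in the knockout, most of it Hbb-b1. Of the 11 tested, 3 fell and none rose (median log2 change -0.30). The 3 were Hba-a1, Klf1 and Car1 again, so no gene of the list outside the 9 passed, and 2 of the 11 reached 1 FPKM in WT alone. In all, 3 genes, Alas2 and Ermap among them, stayed under 1 FPKM in every library. Hbb-b1 and Hba-a1 transcripts were thus present while Alas2 and Ermap, which also mark maturing red cells, were low or near 0.

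**Figure D3:**
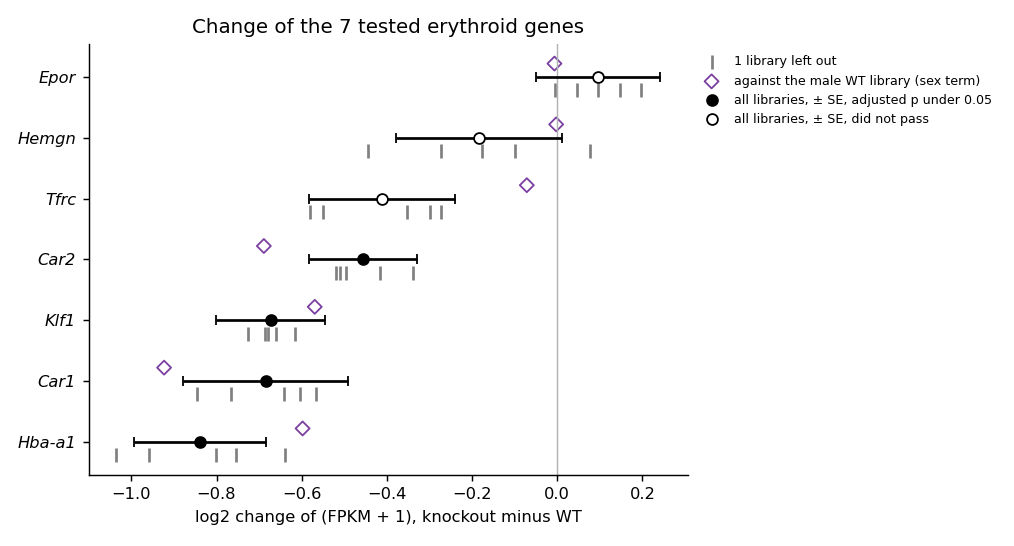
Log2 change of (FPKM + 1), knockout minus WT (horizontal axis), of the 7 tested erythroid genes, with circles for all libraries (bars: SE; filled: limma adjusted p under 0.05), diamonds for the fit with sex as a covariate and grey ticks for each library left out. Hba-a1, Klf1, Car1 and Car2 lie below 0 in all of them, and Tfrc moves from -0.41 to -0.07 in the fit with sex.

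The direction of Hba-a1, Klf1, Car1 and Car2 was the same in all 19 alternative settings in which they could be tested, but their calls were not. Among the WT libraries, replicate 1 was the lowest for Hba-a1, Klf1, Hemgn and Tfrc and the highest for Car1, Car2 and Epor. Accordingly, against that library alone the change was smaller for Hba-a1 (-0.60) and Klf1 (-0.57) and larger for Car1 (-0.92, adjusted p = 0.0544) and Car2 (-0.69) than over all libraries. Sex and the replicate cannot be told apart within WT, where 1 library was male.

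**Figure D4:**
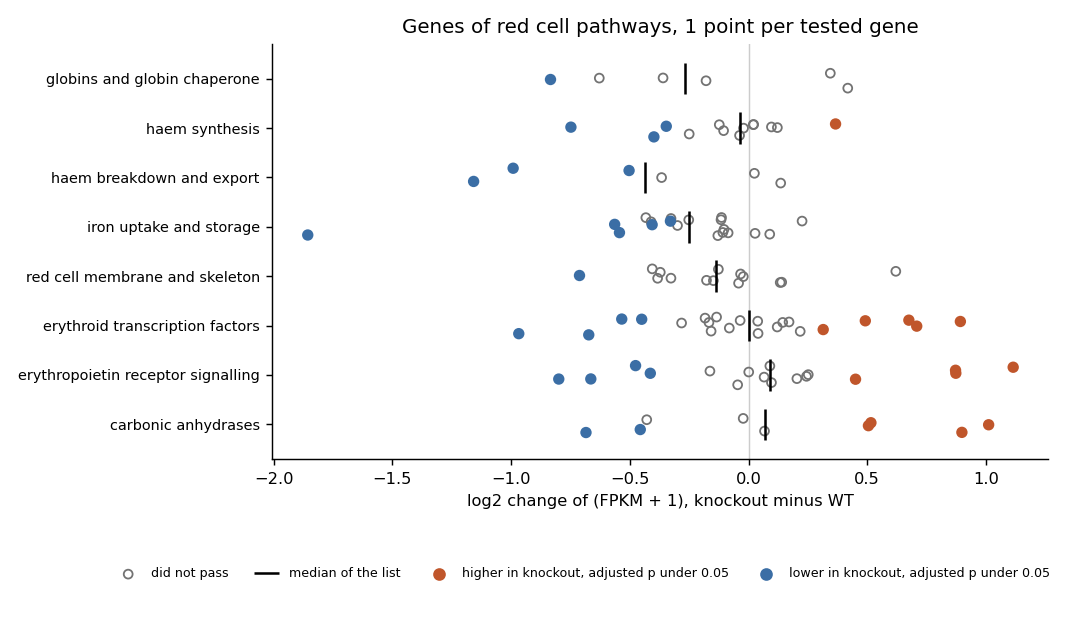
Log2 change of (FPKM + 1), knockout minus WT (horizontal axis), of every tested gene in 8 lists of red cell pathways (rows), filled where the limma adjusted p was under 0.05 and open otherwise, with a bar at each list's median. Called genes of haem breakdown and of iron uptake and storage all lie below 0, while transcription factors, receptor signalling and carbonic anhydrases hold called genes on both sides.

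The tested genes most like each fallen member were found by the root mean square (RMS) difference of log2(FPKM + 1), centred on the WT mean, over the 5 libraries. For Hba-a1 they were Plin2 (RMS difference 0.0389), Atp6v1b2 (0.0505) and Ckb (0.0699), and for Klf1 Wdfy2 (0.0132), Agpat4 (0.0369) and Pmvk (0.0399). For Car2 they were N4bp3 (0.0407), Slc22a15 (0.0425) and Nadk (0.0509), and for Car1 Mirt2 (0.0832), Mthfsl (0.0863) and Slco3a1 (0.0899). No other globin, haem or red cell membrane gene of the lists was among the 3 nearest of any of them. With 5 libraries in 2 groups such likeness is a description.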

How the data were processed

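FPKM values for each gene and library, with 2 decimals, come from the authors' deposited matrix, per the file headers. HISAT, StringTie 1.2.1, edgeR and the build mm10 are listed in the submitters' processing notes without a role or order. Not given in the sources used here are alignment settings, annotation, counting rules and strand. The authors' deposited signed fold (a score) and adjusted p-value come from tests of unstated input. Of 15139 rows, 14603 matched RefSeq GRCm38.p6 by gene number, which gave positions. Mapped reads per library are unknown, so no counting error can be given. FPKM summed to between 560387 and 604368.

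From these values limma 3.58.1 in R 4.3.3 was run on log2(FPKM + 1) with genotype as the only term, a mean-variance trend, 3 residual degrees of freedom and Benjamini-Hochberg adjustment. The procedure was tested on simulated data. The labels do not say that libraries came from separate animals. The WT libraries differ in sex and so are not all from 1 animal, but the p-values measure the spread of these samples alone, part of which may be technical. Where a left-out library leaves 1 knockout library, the WT libraries alone give the spread. With 3 against 2 libraries, no exact permutation test of a single gene can reach 0.05. The genes and lists were chosen with earlier results of these data known. Of each of 8 pathway lists, the text names up to 4 called genes per direction with the smallest adjusted p, the most abundant gene that did not pass, and every globin. Symbols of the lists without a row were not analysed here. Some genes of the lists are counted but not reported here by name. Alternatives varied the pseudocount, filter, scaling, variance model, sex term, replicate block and libraries.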

Additional observations from a re-analysis of the deposited data

How the results depend on the processing

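The 4 calls among the 9 genes became 2 without the filter on low values, under quantile, upper-quartile and median-of-ratios scaling and under total scaling without the 100 highest genes, and 1 with sex as a covariate. Leaving out 1 library gave between 1 and 3 calls, and between 1623 and 2659 of all genes, against 2507 (1623 without WT replicate 2). With sex as a covariate 1312 genes changed. Upper-quartile scaling moved the calls to 1294 higher and 1109 lower from 1032 and 1475, while the median of all genes moved from -0.04 to 0.03. Of 35 named genes that changed, 15 kept their call in every setting and 20 lost it in at least 1, and none changed sign. With the replicate block 3 of the 9 passed, Tfrc (-0.58, adjusted p = 0.0152) gained a call, and Car1 (0.1) and Car2 (0.0912) lost theirs. WT replicate 1 has no knockout library of its number, so this fit gives the same changes as leaving WT replicate 1 out. It is thus not a separate check of them, and it leaves 1 residual degree of freedom. Only a number is shared. Same-numbered libraries' deviations correlated at -0.0292 and 0.0985. With 2 knockout libraries, the deviations of 1 mirror those of the other, so these values cannot decide whether libraries were paired.

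Genes that did not pass changed sign as follows. With sex as a covariate Epor was at -0.0066 and Hbb-bs at -0.0039. With 1 library left out at a time, Epor ranged from -0.0042 to 0.197, Hemgn from -0.444 to 0.0775, Hbb-b1 from -0.358 to 0.00039, Hba-a2 from -0.815 to 0.0945 and Slc48a1 from -0.0242 to 0.0526, and the replicate block put Slc48a1 at -0.0242. Nfe2 was at 0.00019 under upper-quartile scaling. Grb2 was at 0.0144, 0.0355, 0.0033 and 0.0163 under quantile, upper-quartile and median-of-ratios scaling and total scaling without the 100 highest genes. The causes were not tested. Every library's depth is unknown, which limits what can be said of genes near 0.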
